A study of Rattus norvegicus with 16 samples.

Results

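Enzymes that make, recycle or use nicotinamide adenine dinucleotide (NAD) were followed in the ovaries of 16 rats through 10 genes, Nampt, Nmnat1, Nmnat2, Nmnat3, Nadsyn1, Naprt, Qprt, Nnmt, Cd38 and Sirt1. They were chosen by name, as the substrate side of PARP inhibition, and each was read from the array probe that carries its current or older symbol and had the highest mean over the 16 arrays. All 10 had a probe above the filter on dim signals, out of 20215 genes or unnamed probes tested. The rats were female Jcl:SD, a Sprague-Dawley stock, with 4 animals in each of 4 groups and 1 single-colour Agilent array for each ovary sample. WT vehicle and BRCA1+/- vehicle rats received the vehicle. WT olaparib and BRCA1+/- olaparib rats were given olaparib under the skin every day, at 50 mg/kg, for 14 days from an age of 3 weeks, with the ovaries collected 24 h after dosing ended. The structure of the BRCA1 allele and the dosing schedule of the vehicle are not given in the sources used here. The sample is a whole ovary, so that fewer cells of a type and less RNA per cell cannot be told apart.

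NAD is the substrate from which PARP1 and related enzymes build poly(ADP-ribose) at damaged DNA, releasing nicotinamide, and olaparib is a PARP inhibitor that occupies the NAD pocket. Most mammalian cells recover NAD from nicotinamide by the salvage route, in which NAMPT makes nicotinamide mononucleotide and an NMNAT enzyme completes the dinucleotide. Nicotinic acid enters through NAPRT and NADSYN1 (the Preiss-Handler route), and quinolinate from tryptophan enters through QPRT. NNMT methylates nicotinamide and so removes it, while CD38 and SIRT1 split NAD.

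Signals are log2 values relative to the 75th percentile of their array, called the log2 signal, so that a value of 0 is the level of the probe at that percentile. Levels of different probes are not compared. The results turn on the probes of Nampt, Nadsyn1 and Nnmt, whose sequences are shown because 2 probes of Nampt gave different patterns over the same arrays. Positions are those of the array files, which use the rat build rn4. The Nampt probe used is at chr6:51165369-51165428 on the plus strand and starts at base 1417 of its transcript. The second Nampt probe is at chr6:51141208-51141267 and starts at base 154, nearer the 5′ end. The Nadsyn1 probe covers 492 genomic bases at chr1:204190304-204190795 on the minus strand with a length of 60, so it crosses a splice junction. The Nnmt probe is at chr8:51871591-51871650 on the minus strand.
Nampt, probe used: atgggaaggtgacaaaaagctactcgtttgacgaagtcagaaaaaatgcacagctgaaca
Nampt, second probe: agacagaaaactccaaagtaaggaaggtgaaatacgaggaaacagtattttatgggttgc
Nadsyn1, probe used: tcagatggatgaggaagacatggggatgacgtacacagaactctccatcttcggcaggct
Nnmt, probe used: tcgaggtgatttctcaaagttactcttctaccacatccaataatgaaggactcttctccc

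The arrays had a 75th percentile of 202.4 to 566.0 signal units, 55.5% to 60.7% of their probes were well above background, and none had a saturated spot. They lay on 2 slides, with replicates 1 and 2 of every group on slide 1 and replicates 3 and 4 on slide 2. Markers of oviduct and ciliated epithelium, a tissue next to the ovary, split the samples. Their mean centred log2 signal was above 0 in 6 of the 16 arrays (0 of 4 WT vehicle arrays and 2 of 4 in each other group), and ranged from -2.21 to 3.48. All 6 granulosa, theca and oocyte markers of each list were tested, so the labelled tissue was present. Brca1 had a mean log2 signal of -0.44 ± 0.36 (SD, n = 4) in WT vehicle and -1.12 ± 0.31 in BRCA1+/- vehicle ovaries, a difference of -0.67 (SE 0.27; limma adjusted p 0.862) with overlapping groups. With olaparib the means were -0.56 ± 0.49 in WT and -0.72 ± 0.36 in BRCA1+/- ovaries, a difference of -0.16 (SE 0.27, interval from -0.74 to 0.42). Over both treatments the Brca1 difference was -0.42 (SE 0.19, limma p 0.0482) and was not called.

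No NAD gene passed the test in any comparison, and the same held for all other genes. With limma, 0 of the 10 had an adjusted p under 0.05 for olaparib against vehicle in WT, in BRCA1+/- or over both genotypes, for BRCA1+/- against WT with vehicle, with olaparib or over both treatments, or for the interaction of genotype and olaparib. Of all 20215 features 0.0% were called in each of the 7. None of the 10 had an unadjusted p under 0.05 either. The share of all features with one was 4.33% for olaparib in WT, 1.17% for olaparib in BRCA1+/- and 1.32% over both genotypes. It was 5.5% for genotype with vehicle, 0.915% for genotype with olaparib, 2.2% for genotype over both treatments and 3.44% for the interaction. In the 4 comparisons of 2 groups the 4 animals of one group overlapped with the 4 of the other for all 10 genes. Non-overlap was seen for 1.15% of all features for olaparib in WT, 1.1% in BRCA1+/-, 3.44% for genotype with vehicle and 0.584% for genotype with olaparib. An exact permutation test of 4 against 4 animals cannot give a two-sided p under 0.0286, and the lowest among the members was 0.0571 (Nmnat1, BRCA1+/- against WT with vehicle).

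**Figure D1:**
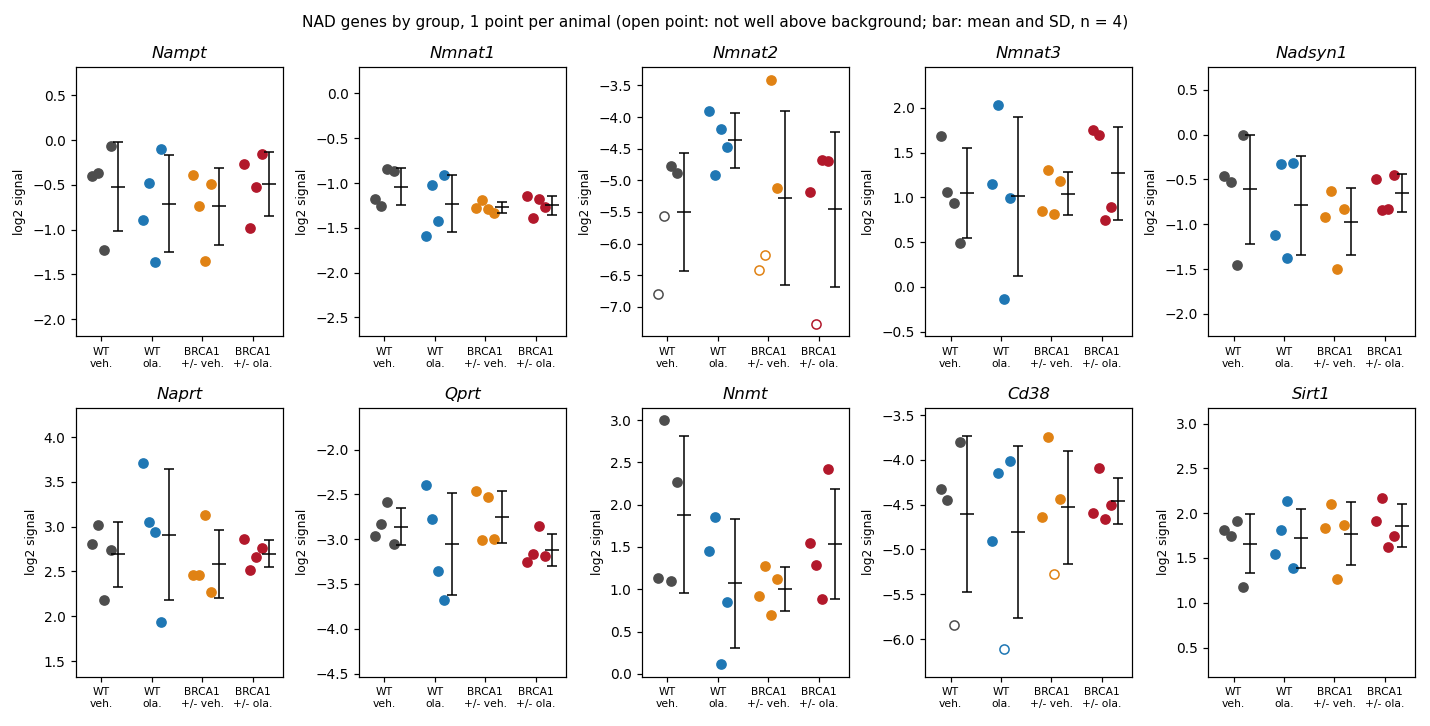
Log2 signal of the 10 NAD genes (vertical axis, relative to the 75th percentile of the array) in the 4 groups, 1 point per animal, with the mean and SD of each group beside it (n = 4); open points were not well above background. The 4 groups overlap in every panel; Nmnat2 ranged over 3.86 log2 units and Nmnat1 over 0.74.

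The salvage route starts with Nampt, its rate-limiting enzyme. In WT vehicle ovaries its log2 signal was -0.40, -0.37, -1.23 and -0.07 (replicates 1 to 4), and in WT olaparib ovaries -0.89, -0.48, -1.36 and -0.10. In BRCA1+/- vehicle ovaries it was -0.39, -0.74, -1.35 and -0.49, and in BRCA1+/- olaparib ovaries -0.27, -0.98, -0.52 and -0.16. One animal of each of the first 3 groups, in each case replicate 3, lay at -1.23 or lower, and all other animals at -0.98 or higher. The group means ran from -0.49 ± 0.36 (BRCA1+/- olaparib) through -0.52 ± 0.50 (WT vehicle) and -0.71 ± 0.54 (WT olaparib) to -0.74 ± 0.43 (BRCA1+/- vehicle; SD, n = 4), and neighbours in that order differed by less than these SDs. The olaparib difference was -0.19 (SE 0.32, interval of 95% from -0.87 to 0.49) in WT and 0.26 (SE 0.32, -0.42 to 0.94) in BRCA1+/- ovaries, with limma adjusted p of 0.987 and 1.0. On a fold scale these intervals run from 0.546 to 1.40 and from 0.745 to 1.91.

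The 3 NMNAT genes encode the enzymes that join the mononucleotide to the adenylate moiety of ATP, NMNAT1 in the nucleus, NMNAT2 at the Golgi and in axons, and NMNAT3 in mitochondria. Nmnat1 was the steadiest of the 10 genes. Its pooled SD within groups of 0.20 was lower than that of all but 7.1% of the features tested, whose median was 0.43. Its mean was -1.04 ± 0.21 in WT vehicle, -1.23 ± 0.32 in WT olaparib, -1.25 ± 0.11 in BRCA1+/- olaparib and -1.27 ± 0.06 in BRCA1+/- vehicle ovaries. All 4 BRCA1+/- vehicle animals (-1.33 to -1.19) were lower than 3 of the WT vehicle animals (-1.18, -0.84 and -0.87), and the remaining WT vehicle animal (-1.26) lay among them. That difference was -0.23 (SE 0.17, -0.60 to 0.13, limma adjusted p 0.863), and it was -0.01 on slide 1 and -0.45 on slide 2. A second Nmnat1 probe followed the first over the 16 arrays with a Pearson r of 0.71 (permutation p 0.00206, adjusted 0.00412 over 4 probe pairs; Spearman rho 0.60, p 0.0157; r 0.65 without the 2 farthest samples), and gave -0.17 (SE 0.19) for the same difference.

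Nmnat2 was the most scattered of the 10 genes, with a pooled SD within groups of 1.05, and exceeded background clearly on 11 of the 16 arrays. In WT vehicle ovaries it read -6.79, -5.56, -4.78 and -4.88, and in WT olaparib ovaries -3.90, -4.92, -4.19 and -4.47. The first 2 of the WT vehicle values were not well above background, while all 4 with olaparib were. The groups overlapped because the lowest olaparib animal (-4.92) was below the 2 highest vehicle animals (-4.78 and -4.88). In BRCA1+/- vehicle ovaries the readings were -6.41, -6.18, -3.41 and -5.12, of which the first 2 were not well above background. With olaparib they were -5.18, -7.27, -4.68 and -4.69, with the second not well above background. The olaparib difference was 1.13 in WT (SE 0.69, -0.34 to 2.60; limma adjusted p 0.964) and -0.18 in BRCA1+/- (SE 0.69, -1.65 to 1.29). BRCA1+/- against WT with olaparib was -1.08 (SE 0.69, -2.55 to 0.39; adjusted p 1.0). Both the WT vehicle values that were not well above background were on slide 1, where the WT difference was 1.76 against 0.50 on slide 2. Over all groups slide 2 was higher for Nmnat2 by 1.25 (limma adjusted p 0.0576), while 1597 of all features were called between the slides. Nmnat2 met the filter through the olaparib groups alone, with 4 WT and 3 BRCA1+/- olaparib arrays well above background against 2 in each vehicle group. Its olaparib differences are therefore a description against groups whose values were partly not well above background. The part of the dim signals in these differences was not tested.

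Nmnat3 exceeded background clearly in every ovary. Its group means were 1.01 ± 0.89 in WT olaparib, 1.04 ± 0.24 in BRCA1+/- vehicle, 1.05 ± 0.50 in WT vehicle and 1.27 ± 0.52 in BRCA1+/- olaparib ovaries. The widest group was WT olaparib, which held both the highest (2.03) and the lowest (-0.13) of the 16 values. The largest difference between 2 groups was 0.26 (BRCA1+/- against WT with olaparib; SE 0.39; limma adjusted p 1.0). Slide 2 was lower than slide 1 by 0.70 on the log2 scale for Nmnat3 (slide 2 minus slide 1 -0.70, adjusted p 0.0628).

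Of the Preiss-Handler genes, Naprt encodes the enzyme that commits nicotinic acid to NAD and Nadsyn1 the amidating synthetase that finishes the route. Naprt read 2.81, 3.02, 2.18 and 2.74 in WT vehicle ovaries and 3.71, 3.05, 2.94 and 1.94 in WT olaparib ovaries. It read 2.46, 2.46, 3.13 and 2.27 in BRCA1+/- vehicle and 2.86, 2.52, 2.66 and 2.76 in BRCA1+/- olaparib ovaries. The highest and the lowest of the 16 values again both came from WT olaparib animals, and the 4 BRCA1+/- olaparib animals lay closest together (SD 0.15). The olaparib difference was 0.22 in WT (SE 0.31, -0.45 to 0.89) and 0.12 in BRCA1+/- (SE 0.31, -0.55 to 0.79), with limma adjusted p of 0.987 and 1.0.

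Nadsyn1 read -0.46, -0.53, -1.45 and 0.00 in WT vehicle ovaries and -1.12, -0.33, -1.38 and -0.32 in WT olaparib ovaries. In BRCA1+/- vehicle ovaries it read -0.92, -0.63, -1.50 and -0.83, and in BRCA1+/- olaparib ovaries -0.50, -0.84, -0.83 and -0.45. The 3 animals that were lowest for Nampt were also lowest for Nadsyn1. The olaparib difference was -0.18 in WT (SE 0.32, -0.85 to 0.50) and 0.31 in BRCA1+/- (SE 0.32, -0.36 to 0.99), and BRCA1+/- against WT with vehicle was -0.36 (SE 0.32, -1.03 to 0.32; limma adjusted p 0.884). For a second Nadsyn1 probe 0 of the 16 arrays exceeded background clearly, and it did not pass the filter.

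Qprt, which brings quinolinate from tryptophan into NAD, had a lower mean with olaparib in both genotypes, and neither difference was called. Its means were -2.75 ± 0.29 in BRCA1+/- vehicle, -2.86 ± 0.21 in WT vehicle, -3.05 ± 0.57 in WT olaparib and -3.12 ± 0.18 in BRCA1+/- olaparib ovaries. In BRCA1+/- ovaries the vehicle animals read -2.46, -3.01, -2.53 and -3.00 and the olaparib animals -3.26, -3.17, -2.85 and -3.19. Of the 4 olaparib animals 3 were below every vehicle animal, and the groups overlapped through the fourth. The difference was -0.37 (SE 0.25, -0.90 to 0.17; limma adjusted p 1.0; exact permutation p 0.0857), and it was -0.48 on slide 1 and -0.26 on slide 2. In WT it was -0.19 (SE 0.25, -0.73 to 0.34), with 0.32 on slide 1 and -0.70 on slide 2.

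Nnmt, the methyltransferase that draws nicotinamide away from salvage, had the smallest p of the 10 genes for olaparib in WT, for genotype with vehicle and for the interaction, and passed in none. In WT vehicle ovaries it read 1.13, 3.00, 1.10 and 2.27, and in WT olaparib ovaries 1.45, 1.86, 0.11 and 0.85. In BRCA1+/- vehicle ovaries it read 0.92, 1.28, 0.69 and 1.12, and in BRCA1+/- olaparib ovaries 1.55, 1.29, 0.89 and 2.42. WT vehicle replicates 2 and 4 and BRCA1+/- olaparib replicate 4 were the 3 high animals, and the 4 BRCA1+/- vehicle animals lay close together. The mean was 1.88 ± 0.93 in WT vehicle, 1.54 ± 0.65 in BRCA1+/- olaparib, 1.07 ± 0.76 in WT olaparib and 1.00 ± 0.26 in BRCA1+/- vehicle ovaries (SD, n = 4).

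For Nnmt the olaparib difference was -0.81 in WT (SE 0.46, -1.79 to 0.18) and 0.54 in BRCA1+/- (SE 0.46, -0.45 to 1.52), and their difference, the interaction, was 1.34 (SE 0.65, -0.05 to 2.73; limma p 0.0571, adjusted 0.968). BRCA1+/- against WT was -0.87 with vehicle (SE 0.46, -1.86 to 0.11; adjusted p 0.862; exact permutation p 0.143) and 0.47 with olaparib (SE 0.46, -0.51 to 1.45). On a fold scale the interval of the vehicle difference runs from 0.276 to 1.08. Another Nnmt probe, at chr8:51868556-51868615, which followed the one used with r 0.88 over 16 arrays (permutation p 1e-05, the smallest that 100000 permutations can give, adjusted 4e-05; rho 0.87, p 3e-05; r 0.84 without the 2 farthest samples), gave -0.68 (SE 0.27) with vehicle and 0.88 (SE 0.39) for the interaction. These had limma p of 0.0263 and 0.0388, and adjusted p of 0.87 and 0.975 over 26808 probes. The remaining Nnmt probe, at chr8:51864770-51864829, gave -0.18 (SE 0.27) and 0.30 (SE 0.39), and followed the one used with r 0.51 (permutation p 0.0423, adjusted 0.0564; rho 0.73, p 0.00215).

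The size of the Nnmt differences moved with single animals. Without WT vehicle replicate 2 the genotype difference with vehicle was -0.50, the olaparib difference in WT -0.43 and the interaction 0.97, and without WT vehicle replicate 3 the first and the last were -1.13 and 1.60. Without the 6 arrays of high oviduct score these 2 were -0.78 and 0.84. Nnmt was also set beside lists of markers of other cell types. Its r over 16 ovaries was 0.68 with the neutrophil list (4 genes, 3 tested; permutation p 0.0038, adjusted 0.073 over 96 relations; rho 0.57, p 0.024) and 0.68 with the 6-gene macrophage list (p 0.00471, adjusted 0.0754; rho 0.59, p 0.0177), and -0.63 with the 6-gene granulosa list (p 0.00794, adjusted 0.0847; rho -0.63, p 0.011). None of these 3 passed by r or rho. Without the 2 farthest samples r was 0.43, 0.42 and -0.58. With the 6-gene stroma list Nnmt passed by rho (0.77, permutation p 0.00082, adjusted 0.0365) and not by r (0.59, p 0.018, adjusted 0.172; 0.63 without the 2 farthest samples). The neutrophil score was 1.42, 1.40 and 1.98 in the 3 animals with the most Nnmt. It was nearly as high, at 1.35, in WT olaparib replicate 4, where Nnmt was only 0.85, and 0.33 or lower in the others. The 3 genes of the score did not move alike. S100a8 and S100a9 had higher means in WT vehicle (-2.28 ± 2.26 and -0.54 ± 1.73) than in BRCA1+/- vehicle ovaries (-3.79 ± 0.46 and -1.71 ± 0.23), and Fpr1 a lower one (-5.53 ± 0.87 against -3.77 ± 0.49). Fpr1 was well above background on 1 of the 4 WT vehicle arrays and on all 4 BRCA1+/- vehicle arrays. The part of these cells in the Nnmt values was not tested.

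For both NAD-splitting enzymes the groups overlapped. Cd38, the main NAD glycohydrolase of immune cells and other tissues, was faint and well above background on 13 arrays. The 3 arrays where it was not (-5.84, -6.11 and -5.27) were replicate 3 of WT vehicle, WT olaparib and BRCA1+/- vehicle, the same animals that were lowest for Nampt and Nadsyn1. Its means were -4.46 ± 0.26 in BRCA1+/- olaparib, -4.53 ± 0.63 in BRCA1+/- vehicle, -4.60 ± 0.87 in WT vehicle and -4.80 ± 0.96 in WT olaparib ovaries. The differences between 2 groups ran from -0.19 to 0.33, each with an SE of 0.48.

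Sirt1, an NAD-dependent deacetylase of histones and transcription factors, had means of 1.66 ± 0.33 in WT vehicle, 1.72 ± 0.33 in WT olaparib, 1.77 ± 0.35 in BRCA1+/- vehicle and 1.86 ± 0.24 in BRCA1+/- olaparib ovaries. Its olaparib difference was 0.06 in WT (SE 0.23, -0.43 to 0.55) and 0.09 in BRCA1+/- (SE 0.23, -0.40 to 0.58). Over the 16 ovaries its r with the granulosa list was 0.65 (permutation p 0.00597, adjusted 0.0819; rho 0.71, p 0.00278; r 0.47 without the 2 farthest samples), which did not pass by r or rho (adjusted rho p 0.0534).

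As a list, the 10 genes were spread over both directions. For olaparib in WT 7 of 10 were lower, with a median difference of -0.18 against -0.07 over all features, of which 60.8% were lower. For olaparib in BRCA1+/- ovaries 8 of 10 were higher, with a median of 0.11 against 0.02, and 53.3% of all features were higher. For BRCA1+/- against WT 6 of 10 were lower with vehicle (median -0.06, the same as over all features) and 6 of 10 higher with olaparib (0.13 against 0.02). For the interaction 7 of 10 were positive, with a median of 0.24 against 0.08. Olaparib in WT, genotype with vehicle and the interaction all use the WT vehicle arrays, so their counts are not separate observations. Between the slides the sign of the difference turned for 3 to 8 of the 10 genes, depending on the comparison. Without the 6 arrays of oviduct score above 0, of which 0 were WT vehicle arrays, 25 of the 70 signs of these genes turned. For olaparib in WT those of Nampt, Nmnat1, Nmnat3, Nadsyn1, Naprt, Cd38 and Sirt1 were among them, so the direction counts depend on these arrays.

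**Figure D2:**
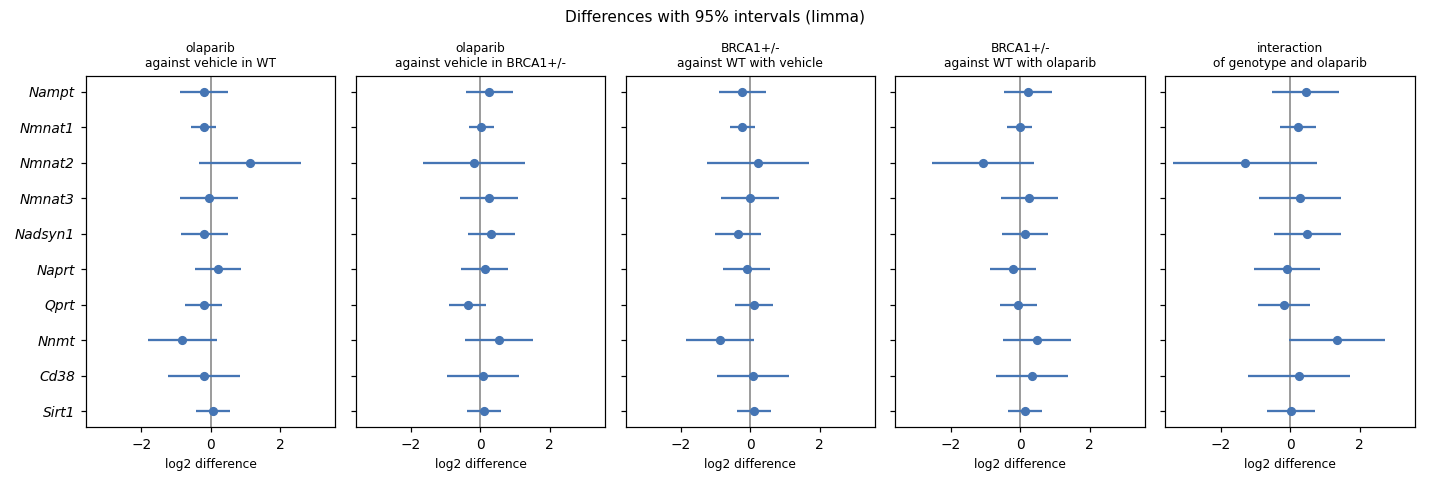
Differences of the 10 NAD genes on the log2 scale (horizontal axis) with intervals of 95% from limma, for olaparib against vehicle in each genotype, BRCA1+/- against WT with each treatment, and the interaction. Every interval includes 0; the interval of Nnmt for the interaction starts at -0.05, and the widest belong to Nmnat2.

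The drug's target and the other genes around NAD were not called either. Parp1 had a mean of 4.31 ± 0.14 in WT vehicle, 4.08 ± 0.20 in WT olaparib, 4.05 ± 0.20 in BRCA1+/- vehicle and 4.16 ± 0.15 in BRCA1+/- olaparib ovaries. Its olaparib difference was -0.22 in WT (SE 0.16) and 0.11 in BRCA1+/- (SE 0.16), with limma adjusted p of 0.964 and 1.0. Of 41 further genes around NAD 33 were tested, and 0 were called in any comparison. Besides NAD metabolism the 41 cover methyl supply for NNMT and partners of SIRT1, and they include Parp1. For olaparib in WT 23 of the 33 were lower (median -0.10, against -0.07 and 60.8% lower over all features). For olaparib in BRCA1+/- 25 were higher (median 0.13, against 0.02 and 53.3% higher over all). With vehicle 24 were lower in BRCA1+/- than in WT (median -0.15, against -0.06 and 57.8% lower), and with olaparib 23 were higher (0.09, against 0.02 and 53.2% higher). The interaction was positive for 26 (median 0.24, against 0.08 and 57.9% positive over all features). As for the members, comparisons that use the same WT vehicle arrays do not give separate counts.

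Of the 8 genes listed for the route from tryptophan, Tdo2, Ido1, Kmo, Kynu, Haao and Acmsd were below the filter. Kynu was well above background on at most 2 arrays for any of its probes and the other 5 on 0. Afmid and Ido2 were tested, and the largest of their differences by p was 1.16 for Ido2 (olaparib in WT, SE 0.76, limma adjusted p 0.964). Among 6 genes of riboside salvage and uptake, Nmrk2 was below the filter, and Nt5e, the surface 5'-nucleotidase CD73, had the smallest p in all 4 comparisons of 2 groups. It differed by -1.02 (SE 0.58) for olaparib in WT, 0.72 (SE 0.58) in BRCA1+/-, and -1.06 (SE 0.58) for genotype with vehicle. All 5 genes of phosphorylation, redox transfer and repair of NAD were tested, and the smallest p in the 4 comparisons of 2 groups was that of Nadk2, the mitochondrial NAD kinase (0.70, SE 0.49, p 0.175, olaparib in BRCA1+/-).

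Of 11 other NAD consumers, 9 were lower with olaparib in WT (median -0.22), 9 were higher with olaparib in BRCA1+/- (0.14), and 10 had a positive interaction (median 0.47). Over all features 60.8% were lower, 53.3% higher and 57.9% positive in these comparisons, with medians of -0.07, 0.02 and 0.08. Sirt7 had the smallest p for olaparib in WT (-0.35, SE 0.19, p 0.0905) and Parp3 for genotype with vehicle (-0.78, SE 0.41, p 0.0734). The genes listed for breakdown and removal, Aox1, Nudt12 and Enpp1, were all tested. Enpp1, a surface phosphodiesterase, was at 0.72 (SE 0.31, limma p 0.035, adjusted 0.964) for olaparib in WT. Of the 6 genes that supply the methyl group for NNMT, Mtr, methionine synthase, was at -0.59 (SE 0.21, p 0.0128, adjusted 0.964) in the same comparison. Ccar2, an inhibitor of SIRT1, was at -0.41 (SE 0.17, p 0.0293, adjusted 0.862) for genotype with vehicle, and Ppargc1a was below the filter. None of these passed.

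Across all groups, 2 of the genes moved together from animal to animal. Among the 28 pairs of the 8 genes that were well above background on all arrays, Nampt and Nadsyn1 had a Pearson r of 0.90 over the 16 ovaries (permutation p 1e-05, the smallest possible with 100000 permutations, adjusted 0.00028; Spearman rho 0.86, p 7e-05, adjusted 0.00196). It was the only pair that passed. Without the 2 samples farthest from the median of Nampt (WT olaparib and BRCA1+/- vehicle, replicate 3 of each) r was 0.84. It was 0.62 within slide 1 and 0.97 within slide 2, 0.90 on deviations from the group means, 0.84 in the 10 ovaries of low oviduct score and 0.99 in the 6 of high score. In the 10 alone the pair no longer passed (adjusted p 0.0602). Leaving out each array in turn gave r of 0.87 to 0.93, and the pair passed all 16 times. Counting Nadsyn1 itself, 3 features had an r with Nampt at least as high as that of Nadsyn1 (0.0148%). Counting Nampt itself, 22 had an r with Nadsyn1 at least as high as that of Nampt (0.109%).

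**Figure D3:**
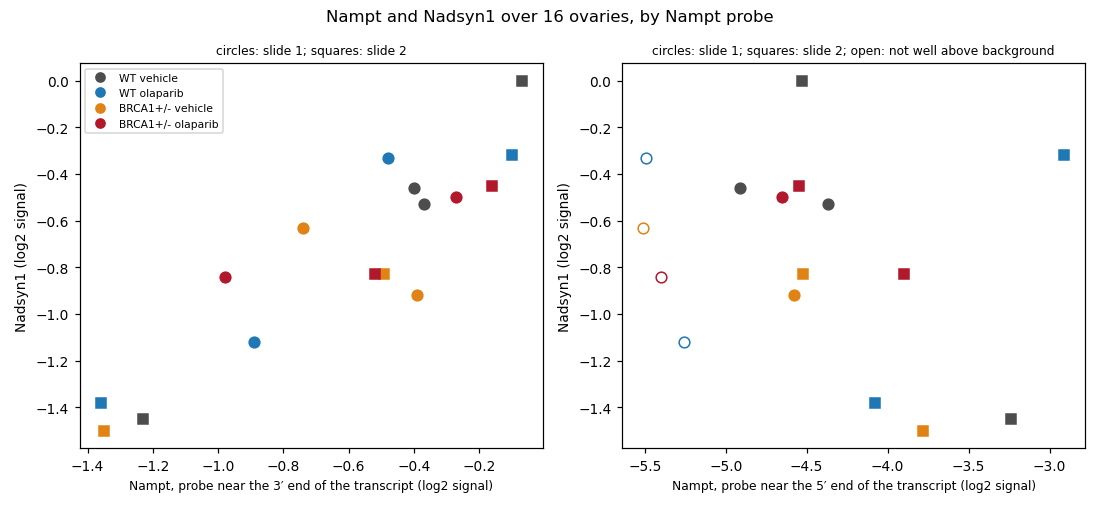
Log2 signal of Nadsyn1 (vertical axes) against that of Nampt (horizontal axes) in 16 ovaries, with the Nampt probe used on the left and the second Nampt probe on the right; colours give the group, shapes the slide, and open points arrays where the second probe was not well above background. The points of the left panel follow a line (r 0.90), and those of the right panel do not (r -0.28).

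The relation was seen with 1 of the 2 Nampt probes. The second probe, toward the 5′ end of the transcript, was dim, with a mean log2 signal of -4.48, and exceeded background clearly on 12 of 16 arrays. Its r with Nadsyn1 was -0.28 (permutation p 0.30; rho -0.21, p 0.43) and its r with the first Nampt probe -0.08 (permutation p 0.782; rho -0.03, p 0.908). Within slide 1 the 2 Nampt probes had an r of 0.73, and within slide 2 of -0.24. All 4 arrays where the second probe was not well above background were on slide 1. With the mean of both probes in place of the brighter one, the r of Nampt with Nadsyn1 was 0.21 (adjusted p 0.682). Which of them follows the NAMPT transcript was not tested.

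Cd38, tested in no pair because of its dim arrays, had an r of 0.84 with Nadsyn1 and 0.72 with Nampt over the 16 arrays, as a description. The 3 arrays at the low end of all 3 genes lay on slide 2. Their 75th percentiles were 205.8, 394.4 and 202.4 signal units, and that of WT olaparib replicate 4, which was high for Nampt at -0.10, was 241.0. The r of Nampt with the log2 of the 75th percentile was 0.36 (permutation p 0.171; rho 0.10, p 0.723) and that of Nadsyn1 0.45 (p 0.082; rho 0.32, p 0.228), with an adjusted p of 0.307 for both over 8 relations. Whether array brightness has a part in the shared pattern was not tested further. Oviduct scores of the 3 low arrays were -1.93, 3.11 and 3.46, so both kinds of ovary were among them.

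The other pairs were weaker. Nnmt had an r of 0.61 with Nadsyn1 (permutation p 0.0109, adjusted 0.152; rho 0.55, p 0.0302; r 0.51 without the 2 farthest samples) and 0.56 with Nampt (p 0.0222, adjusted 0.18; rho 0.53, p 0.0377; r 0.33). Nmnat1 and Naprt had an r of -0.55 (p 0.0257, adjusted 0.18; rho -0.35, p 0.188; r -0.20). The 2 genes of the Preiss-Handler route, Naprt and Nadsyn1, had an r of -0.14, and Nampt and Nmnat1, consecutive in salvage, of 0.37 (p 0.166, adjusted 0.528; rho 0.50, p 0.0509).

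**Figure D4:**
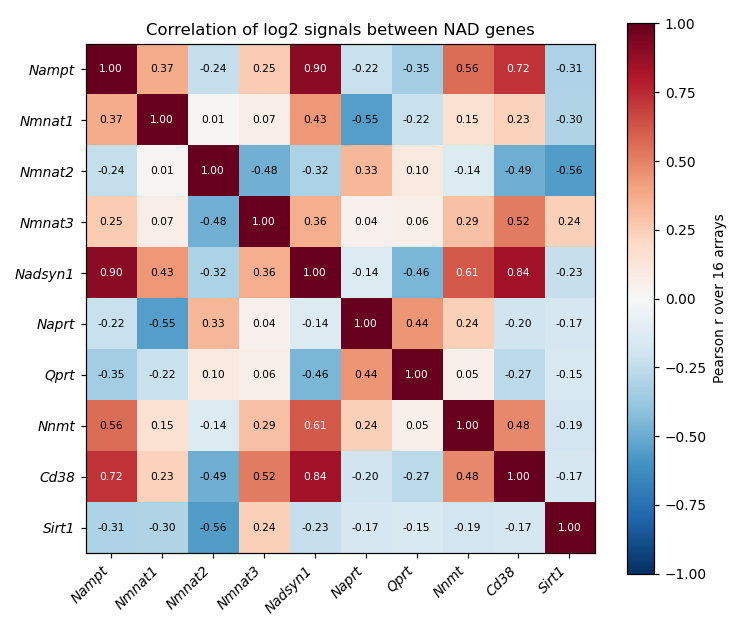
Pearson r between the log2 signals of the 10 NAD genes over 16 arrays, from blue (-1) through white (0) to red (1), with the value in each cell. The highest cell off the diagonal is Nampt with Nadsyn1 (0.90), followed by Cd38 with Nadsyn1 (0.84) and with Nampt (0.72); Nmnat2 and Cd38 include arrays not well above background.

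Genes whose pattern over the 16 arrays was most like that of a member were named by a fixed rule, as the 3 with the highest r and a symbol. For Nampt these were Fkbp1a (0.90), Nadsyn1 (0.90) and Psmb7 (0.89), and for Nadsyn1 they were Capza1, Lasp1 and Pus1 (0.94 each). For Nnmt they were Tmem178a (0.96), Casp12 (0.95) and Sprn (0.93), and for Naprt Garnl3 (0.91), Clip4 and Slc38a1 (0.90 each). The values for Sirt1 were 0.94 with Mdfic and 0.92 with Rbm48 and Eif5a2, and for Nmnat3 0.93 with Mcoln1 and Dda1 and 0.92 with Pars2. Nmnat1 was closest to Ywhab, Ddx54 and Mapk6 (0.88 each). Qprt had the lowest values, 0.82 with Pid1, 0.75 with Pi15 and 0.74 with Gapt. These values are a description of 16 arrays and were not tested.

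Levels were also set beside the scores of 12 marker lists for cells of the ovary and its surroundings, for the 8 genes well above background on all arrays. Of the 96 relations 19 had an unadjusted permutation p under 0.05 for Pearson's r, and 2 passed by r, both of Naprt. By Spearman's rho 4 passed, those of Naprt, Nampt with the neutrophil list and Nnmt with the stroma list, each with an adjusted p of 0.0365. Its r over 16 ovaries was -0.77 with the 5-gene endothelium list (permutation p 0.00033, adjusted 0.0317; rho -0.80, p 0.00044) and 0.76 with the 5-gene list of surface epithelium and mesothelium (p 0.00069, adjusted 0.0331; rho 0.74, p 0.00152). Without the 2 farthest samples r was -0.80 and 0.61. Within slides it was -0.86 and -0.90 for endothelium, and 0.77 and 0.92 for surface epithelium. All 5 markers of each list were tested. The 6 arrays of oviduct score above 0 had surface scores of 0.24 to 2.22, and the others of -2.39 to 0.74. Krt18 of the surface list had means of 1.36, 4.34, 3.53 and 3.75 in WT vehicle, WT olaparib, BRCA1+/- vehicle and BRCA1+/- olaparib ovaries. The oviduct marker Tppp3 had 1.52, 4.56, 3.75 and 3.42. The part of oviduct cells in the surface score was not tested.

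**Figure D5:**
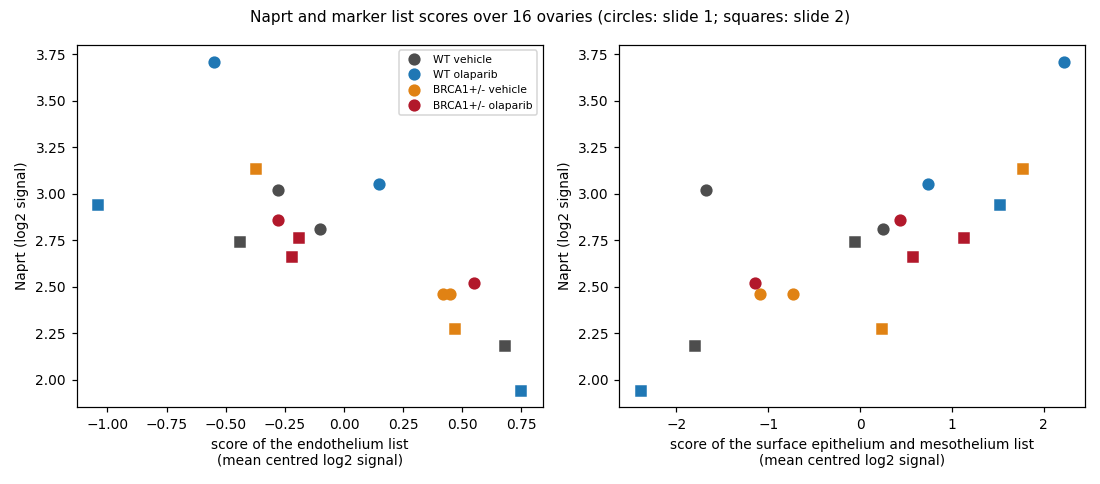
Log2 signal of Naprt (vertical axes) in 16 ovaries against the score of the endothelium list (left) and of the surface epithelium and mesothelium list (right), each the mean of centred log2 signals; colours give the group and shapes the slide. Naprt falls along the left axis (r -0.77) and rises along the right (r 0.76), with WT olaparib animals at the ends of both.

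The adjusted values of the Naprt relations stood near the threshold. In the 10 ovaries of low oviduct score neither passed (r -0.82, adjusted p 0.157, for endothelium and 0.73, adjusted 0.208, for surface epithelium). Leaving out each array in turn kept r between -0.84 and -0.73 for endothelium, and the relation passed 9 of 16 times. For surface epithelium r stayed between 0.68 and 0.88, and it passed 7 of 16 times. The highest adjusted p was 0.101 for both, without WT vehicle replicate 3. WT olaparib animals made up both ends: replicate 1 had the most Naprt (3.71) and a surface score of 2.22, and replicate 4 the least (1.94) with -2.39. Their endothelium scores were -0.55 and 0.75, so the 2 scores ran opposite in these animals. In WT vehicle replicate 2 both scores were below 0 (-0.28 for endothelium and -1.68 for surface epithelium). The relation of the 2 scores to each other was not tested, so the 2 Naprt relations cannot be taken as separate results. Naprt also had an r of 0.69 with the adipocyte list (7 genes, 5 tested; p 0.00364, adjusted 0.073; rho 0.59, p 0.0198; 0.76 without the 2 farthest samples), which did not pass. Adipocyte scores ran from -2.97 to 4.31, and in WT vehicle ovaries 1 of the adipocyte markers was well above background on all 4 arrays. In the other groups 3 or 4 were. The part of attached tissue in the Naprt levels was not tested.

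The strongest relation of Nampt to a list was with the neutrophil list, which passed by rho and not by r (r 0.70, permutation p 0.00283, adjusted 0.073; rho 0.75, p 0.00121, adjusted 0.0365; 0.69 without the 2 farthest samples), followed by Nadsyn1 with that list (0.64, p 0.00786, adjusted 0.0847; rho 0.62, p 0.0111; 0.66). Within slides these were 0.27 and 0.91 for Nampt and 0.20 and 0.90 for Nadsyn1. The relation of Nadsyn1 passed by neither measure. Of the 4 genes of the neutrophil list 3 were tested, and their group means did not move alike, as described with Nnmt. Group scores of the neutrophil list overlapped in all 4 groups, from -1.28 to 1.42 in WT vehicle, -1.18 to 1.35 in WT olaparib, -0.54 to 0.33 in BRCA1+/- vehicle and -0.35 to 1.98 in BRCA1+/- olaparib ovaries.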

How the data were processed

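Total RNA of 16 ovaries was labelled with Cy3 and measured on single-colour Agilent arrays. The authors' spot intensity comes from Agilent Feature Extraction (10.7 in the submitters' processing notes, 10.7.1.1 per the file headers), and the processed signal was background-subtracted within each array, per the file headers. A deposited table of log2 values follows these signals up to one shift for each array (r 1.0). Here log2 processed signals minus the 75th percentile of the non-control probes of each array were used. Of 45598 non-control probes (12 left out for outlier flags), 26808 were well above background on at least 3 of the 4 arrays of a group. The brightest probe stood for a gene, which gave 20215 features. A limma model (3.58.1, R 4.3.3) gave each group its mean over all 16 arrays (12 residual and 2.43 prior degrees of freedom; two-sided). Calls needed an adjusted p (Benjamini-Hochberg, all features) under 0.05 in each of 7 comparisons, which share groups. Correlations over all 16 ovaries used 100000 two-sided permutations with p adjusted over each family, and list scores are means of centred log2 signals. The relation of members to the oviduct list was left out because its scores fall into 2 clusters. Named genes are the 10 members, Brca1, Parp1, the smallest p of each list of NAD genes in a comparison of 2 groups, genes below the filter, and the 3 genes most like each member. Members and lists were chosen with earlier results of these data known. The fits and the correlation test were tested on data with known answers. Slide column and group cannot be told apart, since each group took the same column of both slides. The number of arrays limits precision.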

Additional observations from a re-analysis of the deposited data

Results flagged for a closer look

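Brca1 in the WT olaparib group had one sample apart from the others. Replicate 3 read a log2 signal of 0.17, and the other 3 read between -0.91 and -0.74. The gap was 0.843 of the range of the group, above Dixon's critical value for 4 samples. This was 1 of 44 sets of a gene and a group examined (the 10 NAD genes and Brca1 in 4 groups), of which chance flags about 5%. None of the 10 NAD genes had such a sample.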

How the results depend on the processing

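No call of a NAD gene depended on a setting, since none was made under any. The sign of a gene's difference turned in 3 of 70 values with quantile normalization, 10 of 70 with normexp background correction, 2 of 70 with the mean of all kept probes, 25 of 70 without the arrays of oviduct score above 0 and 72 of 1120 with 1 array left out. It turned in 0 with a slide block, a replicate block, no filter, a stricter filter (56 values) or the deposited table. These settings could hardly turn a sign, so the 0 is no check of the differences. The blocks are balanced over the groups, and the filters kept the same probe of each gene. The deposited table follows the same signals up to 1 shift for each array. The cause of the turned signs was not tested.

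With quantile normalization the turned values were 0.01 for Nmnat3, BRCA1+/- against WT with vehicle, 0.03 for Nmnat1, BRCA1+/- against WT with olaparib, and -0.02 for Sirt1, interaction of genotype and olaparib. With normexp Nmnat1 was at -0.01 for olaparib in BRCA1+/- and 0.01 for genotype with olaparib. Cd38 was at -0.12 for olaparib in BRCA1+/-, and for genotype at -0.04 with vehicle, -0.01 with olaparib and -0.03 over both. Nmnat2 was at -0.01 for olaparib over both genotypes and -0.02 for genotype with vehicle, where Nmnat3 was at 0.01, and Qprt at -0.07 for genotype over both treatments. With the mean of probes Nampt was at -0.03 for olaparib over both genotypes and Nmnat1 at 0.02 for genotype with olaparib.

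Without the 6 arrays of oviduct score above 0, an alternative chosen after seeing the data, olaparib in WT gave Nampt 0.23, Nmnat1 0.07, Nmnat3 0.46, Nadsyn1 0.29, Naprt -0.19, Cd38 0.52 and Sirt1 -0.06. Olaparib in BRCA1+/- gave Nampt -0.06, Nmnat1 -0.03, Nmnat2 0.07 and Cd38 -0.15, and over both genotypes Nmnat1 0.02 and Cd38 0.19. Genotype gave Nmnat2 -0.79 and Nmnat3 0.03 with vehicle, and Nampt -0.34, Nadsyn1 -0.34, Naprt 0.20, Qprt 0.01 and Cd38 -0.26 with olaparib. The interaction was -0.29 for Nampt, -0.11 for Nmnat1, -0.18 for Nadsyn1, 0.43 for Naprt and -0.67 for Cd38.

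Deviations of same-numbered samples correlated from -0.44 to 0.57 for replicate 1, -0.07 to 0.69 for replicate 2, 0.05 to 0.71 for replicate 3 and -0.30 to 0.39 for replicate 4, so not every pair deviated together and the numbers were not taken as pairing. With the replicate block 1 NAD gene, Nnmt, had an unadjusted limma p under 0.05 for olaparib in WT, 1 for genotype with vehicle and 1 for the interaction (p 0.0432, 0.031 and 0.021, adjusted 0.626, 0.536 and 0.711).

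The alternatives for correlations were also chosen after seeing the data. The correlation of Nampt and Nadsyn1 was 0.21 with the mean of probes and 0.84 (adjusted p 0.0602) without the oviduct arrays, and 0 pairs passed in each. Of the member and marker list relations 8 passed with quantile normalization, 8 with the replicate block and 0 without the oviduct arrays, where Naprt had -0.82 with endothelium (adjusted 0.157) and 0.73 with surface epithelium (0.208).

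With each array left out in turn, 0 to 1 NAD genes had an unadjusted p under 0.05 for olaparib in WT, for olaparib over both genotypes and for the interaction, and 0 to 2 for genotype with vehicle. Over all features 0 to 1 were called for olaparib in BRCA1+/- and for genotype over both treatments, in both cases 1 without WT olaparib replicate 4. From 1 to 2 pairs and 0 to 5 marker relations passed. The r of Naprt ran from -0.84 to -0.73 for endothelium and 0.68 to 0.88 for surface epithelium. Olaparib in WT ran from -0.38 to 0.34 for Nmnat3, -0.46 to 0.03 for Nadsyn1, -0.61 to 0.24 for Cd38, -0.10 to 0.17 for Sirt1, -0.04 to 0.55 for Naprt, -0.43 to 0.03 for Nampt and -0.41 to 0.01 for Qprt. Olaparib in BRCA1+/- ran from -0.55 to 0.45 for Nmnat2, -0.19 to 0.33 for Cd38, -0.07 to 0.20 for Sirt1 and -0.01 to 0.07 for Nmnat1. Olaparib over both genotypes ran from -0.28 to 0.05 for Nnmt, -0.09 to 0.14 for Nampt, -0.07 to 0.17 for Nadsyn1, -0.27 to 0.15 for Cd38, -0.07 to 0.29 for Nmnat3 and -0.01 to 0.13 for Sirt1. Genotype with vehicle ran from -0.40 to 0.60 for Nmnat2, -0.19 to 0.21 for Nmnat3, -0.34 to 0.34 for Cd38 and -0.05 to 0.27 for Sirt1. Genotype with olaparib ran from -0.53 to 0.06 for Naprt, -0.28 to 0.15 for Qprt, -0.13 to 0.10 for Nmnat1, -0.12 to 0.60 for Nmnat3, -0.07 to 0.29 for Nadsyn1 and -0.11 to 0.60 for Cd38. Genotype over both treatments ran from -0.09 to 0.13 for Qprt, -0.06 to 0.30 for Nmnat3 and -0.01 to 0.34 for Cd38. The interaction ran from -0.14 to 0.19 for Sirt1, -0.43 to 0.17 for Naprt, -0.18 to 0.67 for Cd38, -0.38 to 0.05 for Qprt and -0.11 to 0.61 for Nmnat3. Signal over background limits Nmnat2 and Cd38, which were dim on 5 and 3 arrays.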
